A study of Mus musculus with 20 samples.

Results

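The ubiquitin-proteasome pathway is the main route by which cells tag proteins and break them down, and the cytosines described here lie in the mRNAs that encode its parts. They were chosen by gene symbol alone: a symbol had to begin with Psma, Psmb, Psmc, Psmd, Psme, Ube2, Ube3, Ube4 or Usp followed by a digit, and pseudogenes named as such were left out. This gave 279 of the 32378 cytosines in the authors' table, in 95 of 10240 gene symbols. The mRNA came from the heart, kidney, spleen, liver and small intestine of wild-type (WT) mice and of mice without Nsun6 (KO), and 2 bisulfite libraries were made per tissue and genotype, 20 in all. Nsun6 methylates cytosines of mRNA to 5-methylcytosine (m5C). According to the methods, the KO strain lacked exons 3 and 4 of Nsun6, removed with CRISPR/Cas9 in C57BL/6J fertilized eggs, and tissues came from 8-week-old female mice. The deletion was constitutive, so all cells of a tissue carried it. Whether both libraries of a tissue and genotype represent different animals is stated nowhere in the labels or methods, so the p-values reflect only how far these libraries spread.

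Ubiquitin is a small protein that is activated by an E1 enzyme, passed to an E2 conjugating enzyme and attached to a substrate with the help of an E3 ligase. Chains of it mark the substrate for the proteasome, a barrel of alpha and beta subunits capped by a regulatory particle that unfolds the substrate, and deubiquitinases take ubiquitin off again. Psma and Psmb genes encode the alpha and beta subunits of the barrel. Psmc genes encode the ATPases of the regulatory particle, most Psmd genes its other subunits and Psme genes alternative activators. Ube2 genes encode E2 enzymes, Ube3 and Ube4 genes E3 ligases and chain-elongating enzymes, and Usp genes the largest group of deubiquitinases. The rule also took in Usp6nl, which encodes a GTPase-activating protein rather than a deubiquitinase, and Psme2b, a retrogene copy of Psme2.

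Cytosines without the mark are converted by bisulfite and read as T. The m5C level of a site is therefore the number of reads that still carry C, here called unconverted reads, divided by all reads over the site, its coverage. CTCCA beginning at the methylated cytosine is the sequence for which the study named a preference of Nsun6, and CNGGG is a sequence known for the related enzyme Nsun2. The sequences below are those of sites that the authors passed in several libraries or that entered a test, and of those with CTCCA. They are 5′ to 3′ on the RNA strand from mouse build mm10, with the methylated cytosine and the 4 bases after it in capitals.
Ube2r2, chr4:41190912-41190932, plus strand: aacttactccCGGGGcgggga
Psma4, chr9:54957889-54957909, plus strand: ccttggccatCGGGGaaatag
Usp24, chr4:106406412-106406432, plus strand: aggtccagctCAGGGtttgtg
Usp3, chr9:66592947-66592967, minus strand: tgcccagtgcCGGGTcagaag
Ube2z, chr11:96049256-96049276, minus strand: gccaatggctCGAGGgattgt
Ube2f, chr1:91285406-91285426, plus strand: tgaaacagctCGAGGtagccc
Psmd7, chr8:107581193-107581213, minus strand: gagaaggtagCCAGCggcaag
Psmb3, chr11:97711119-97711139, plus strand: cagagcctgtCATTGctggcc
Ube4b, chr4:149328706-149328726, minus strand: acaaaaaaaaCAAAAaaaaaa
Ube4b, chr4:149328715-149328735, minus strand: aaacaaaaaaCAAAAaaaaca
Psme4, chr11:30861342-30861362, plus strand: ttatagatcgCTCCAgtggaa
Psmd1, chr1:86136955-86136975, plus strand: ctgtgcagctCTCCAtcgggg
Ube3b, chr5:114418587-114418607, plus strand: agcctccgttCTCCAtccgct
Usp47, chr7:112083137-112083157, plus strand: gaggctactaCTCCAgtgctt
Ube2r2, Psma4 and Usp24 fit CNGGG, the last 4 fit CTCCA, and the Ube4b cytosines stand alone in runs of A. The same 21 bases occurred 398 and 533 times in the assembled chromosomes for the Ube4b sites, counting both strands. The Psmb3 stretch occurred 3 times, those of Psma4 and Ube2f 2 times, and those of the other sites shown once. Of the 279 sites, 251 had a unique stretch, and the stretch of the other 28 occurred more than once. Reads are longer than these stretches and their mapping was not examined, so the copy they came from is not settled at those 28. At the far end were Psma7, with 3 neighbouring sites in a noncoding exon, of which 2 stretches occurred 11543 and 16307 times, and a Usp6nl site with 5863 copies.

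The libraries held from 1230665 reads over the listed sites (the second of heart KO) to 4640168 (the first of kidney KO), and pathway sites took 0.392% to 1.44% of them. Spleen KO replicate 2 and kidney KO replicate 2 stood apart, with 3.83% and 3.42% of reads unconverted over all sites outside the tests, while the other 18 libraries had 0.0975% to 2.05%. Over the pathway sites outside the tests it ran from 0.0141% in liver KO replicate 2 to 2.49% in spleen KO replicate 2. Marker lists of the labelled tissues, of which 3 to 7 of 8 genes had sites, took a higher share of reads in that tissue's own libraries than in any other library for all 5 tissues, with the closest approach for kidney markers (0.265% against 0.112% in heart). No site of Nsun6 was listed, so its deletion was not checked here. Intervals and the limits for a count of 0 (3 counts divided by the reads) cover counting error only, since without molecular identifiers copies of a molecule are counted as separate reads.

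The Usp family held the most sites. Usp genes had 136 sites in 38 of 56 annotated protein-coding genes with such symbols, and Ube2 genes had 68 in 24 of 37. Among the proteasome symbols, Psmd genes had 27 sites in 10 of 14 genes, Psmb 8 in 7 of 11 and Psma 7 in 4 of 8. Psme genes had 7 in 3 of 5 and Psmc genes 5 in 4 of 7. Those 7 Psmc symbols include Psmc3ip, which had no site and is left out of the proteasome genes named below. The ligases Ube3 had 12 sites in all 3 genes and Ube4 9 in both. Ube2o, which encodes a large enzyme that joins E2 and E3 activity, and Usp24, a deubiquitinase, each had 10 sites, followed by Usp36 with 9, a deubiquitinase of the nucleolus, and Ube2z with 8. A single site was listed for 29 of the 95 genes. No site was listed for the proteasome genes Psma3, Psma5, Psma6, Psma8, Psmb4, Psmb5, Psmb10, Psmb11, Psmc3, Psmc5, Psmd4, Psmd6, Psmd8, Psmd14, Psme1 and Psme2. The table lists sites that passed in some library and not all cytosines, so this is no statement about methylation of those mRNAs.

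Coding sequence held 150 of the 279 sites (53.8%), the 3′ UTR 90 (32.3%), the 5′ UTR 31 (11.1%) and noncoding exons 8 (2.87%). Over all 27748 listed sites in exons the shares were 59.4%, 28.4%, 6.63% and 5.59% in the same order. CNGGG was found at 7 pathway sites (2.51%) and CTCCA at 4 (1.43%), against 4.31% and 1.02% of the sites in exons. These are descriptions of which cytosines were listed, and no test of the difference was made.

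Most of these sites were seen once. The authors had passed 270 of the 279 (96.8%) in exactly 1 library and 9 (3.23%) in 2 or more, against 97.1% and 2.88% of all listed sites. In the library where such a site was passed, the median level was 0.156 at a median coverage of 44 reads. Pooled over the other libraries the same 270 sites had a level of 0.0515%, against 0.133% for all sites passed in 1 library. The other library of the same tissue and genotype had at least 20 reads at 170 of them, and 160 (94.1%) of these had 0 unconverted reads there, while 4 (2.35%) had 2 or more. Over all sites passed in 1 library the last 2 shares were 95.4% and 2.43%. In the sister library these shares were thus close to each other.

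Which libraries passed these sites was uneven. Heart KO replicate 1 passed 44 pathway sites and heart KO replicate 2 passed 3, and small intestine KO held 25 and 4. Spleen had 5 and 33 passed sites in WT and 5 and 32 in KO, kidney 2 and 8 in WT and 3 and 16 in KO, and liver 20 and 28 in WT but 1 and 1 in KO. The heart WT libraries passed 30 and 31, and those of small intestine WT 9 and 4. The 8 libraries with the most passes held 243 of the 304 passes of pathway sites (79.9%) and 77.7% of the passes of all sites. As a share of the sites with at least 20 reads, pathway passes ranged from 0.943% in liver KO replicate 1 to 22.9% in heart KO replicate 1, and the same libraries stood at 1.55% and 21.8% for all sites. Libraries with many passes of pathway sites were thus libraries with many passes in all.

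**Figure D1:**
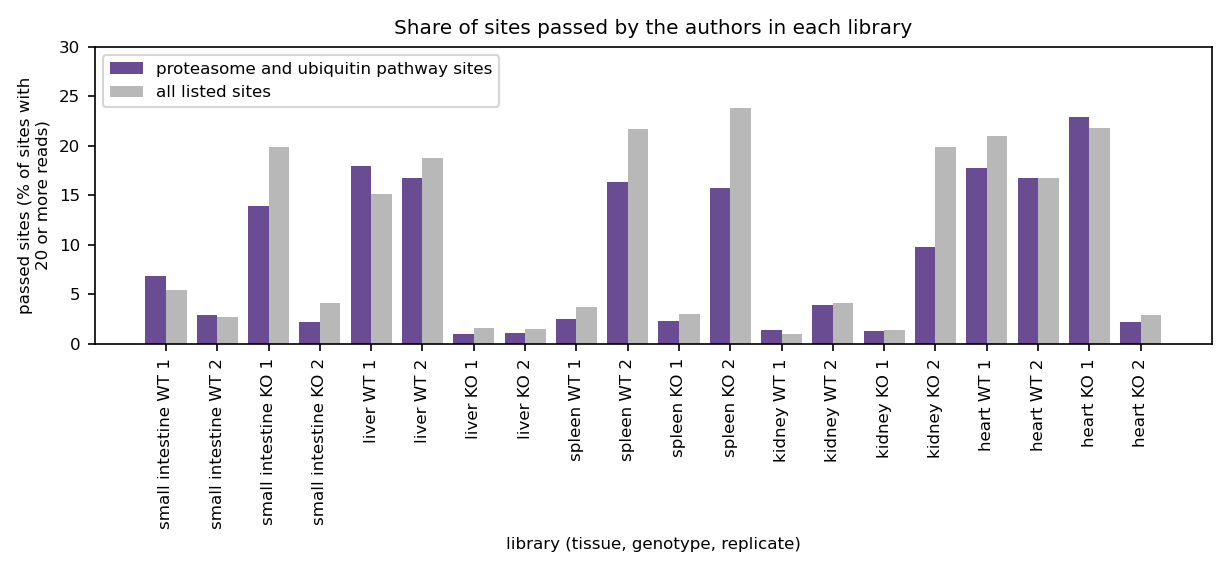
Share of sites passed by the authors in each of the 20 libraries, in percent of the sites with at least 20 reads there, for the proteasome and ubiquitin pathway sites and for all listed sites. Heart KO replicate 1 stood at 22.9% and heart KO replicate 2 at 2.16% for pathway sites, and the bars for all sites showed the same split.

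The criteria of the study's methods, applied to each genotype, ask each library for 20 reads and 2 unconverted reads, and the mean level must reach 0.05. In small intestine 2 of the pathway sites with enough reads (1.77%) met them in WT and 3 (2.19%) in KO, where 1.27% and 1.17% of all sites did. In liver 1 of 96 and 1 of 89 met them (all sites 1.68% and 2.28%), and in kidney 1 of 142 and 1 of 156 (1.29% and 1.36%). In spleen 0 of 175 met them in WT and 2 of 172 in KO (0.858% and 0.870%). In heart 2 of 141 met them in WT and 4 (3.39%) in KO (all sites 3.59% and 4.38%). The counts of pathway sites are too small to be set against these shares. Counting each site once per tissue, 14 pairs met the criteria in either genotype.

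Ube2r2, which encodes an E2 enzyme that works with the cullin-RING ligases, carried the site seen most often, in the 3′ UTR 101 bases after the stop codon (exon 5, chromosome 4, position 41190922). It was passed in 12 libraries, while no other pathway site was passed in more than 5. In heart the level was 0.447 (42 of 94 reads) in WT replicate 2, 0.455 (25 of 55) in KO replicate 1 and 0.381 in KO replicate 2 with 40 unconverted reads, and WT replicate 1 had no value. In liver it was 0.150 and 0.105 in WT and 0.109 and 0.114 in KO, at 38 to 153 reads. In kidney it was 0.146 (35 of 240) and 0.164 (11 of 67) in WT and 0.149 (101 of 679) and 0 in KO. All heart libraries with a value were above every library of the other tissues, and kidney KO replicate 2 stood apart from the other 3 kidney libraries, with a limit for its 0 of 0.0217. In spleen the levels were 0 and 0.109 in WT and 0.0811 and 0 in KO at 34 to 64 reads, and in small intestine 0.0286 and 0.0134 in WT and 0.351 (13 of 37) and 0 (0 of 23) in KO. Ranked by their medians the order was heart, then kidney and liver, then spleen and small intestine. Kidney, liver and spleen overlapped, and small intestine KO held the highest value outside heart as well as a 0. Heart was not tested against the other tissues because 1 WT library had no value, and in mixed tissue a change of level cannot be told apart from a change in the cells that supply the mRNA.

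Neither genotype comparison of Ube2r2 passed the test. In liver the mean level was 0.128 ± 0.0319 (SD, n = 2) in WT and 0.111 ± 0.00362 in KO, with a log2 odds ratio of KO over WT of -0.27 and an adjusted p of 0.902 (edgeR's quasi-likelihood test on unconverted and converted counts, Benjamini-Hochberg over all sites tested in the tissue, two-sided). In kidney the means were 0.155 ± 0.0130 and 0.0744 ± 0.105, with a log2 odds ratio of -2.23 and an adjusted p of 0.711. The kidney value rested on single libraries: without KO replicate 2 the log2 odds ratio was -0.04, and without KO replicate 1 it was -7.57. In the main kidney comparison 0 of 209 sites were called (0%). That share does not hold for the fit without KO replicate 1, where calls over all genes rose. The sequence at the Ube2r2 site is CGGGG. The 3 heart libraries put WT and KO side by side, at 0.447 against 0.381 and 0.455.

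**Figure D2:**
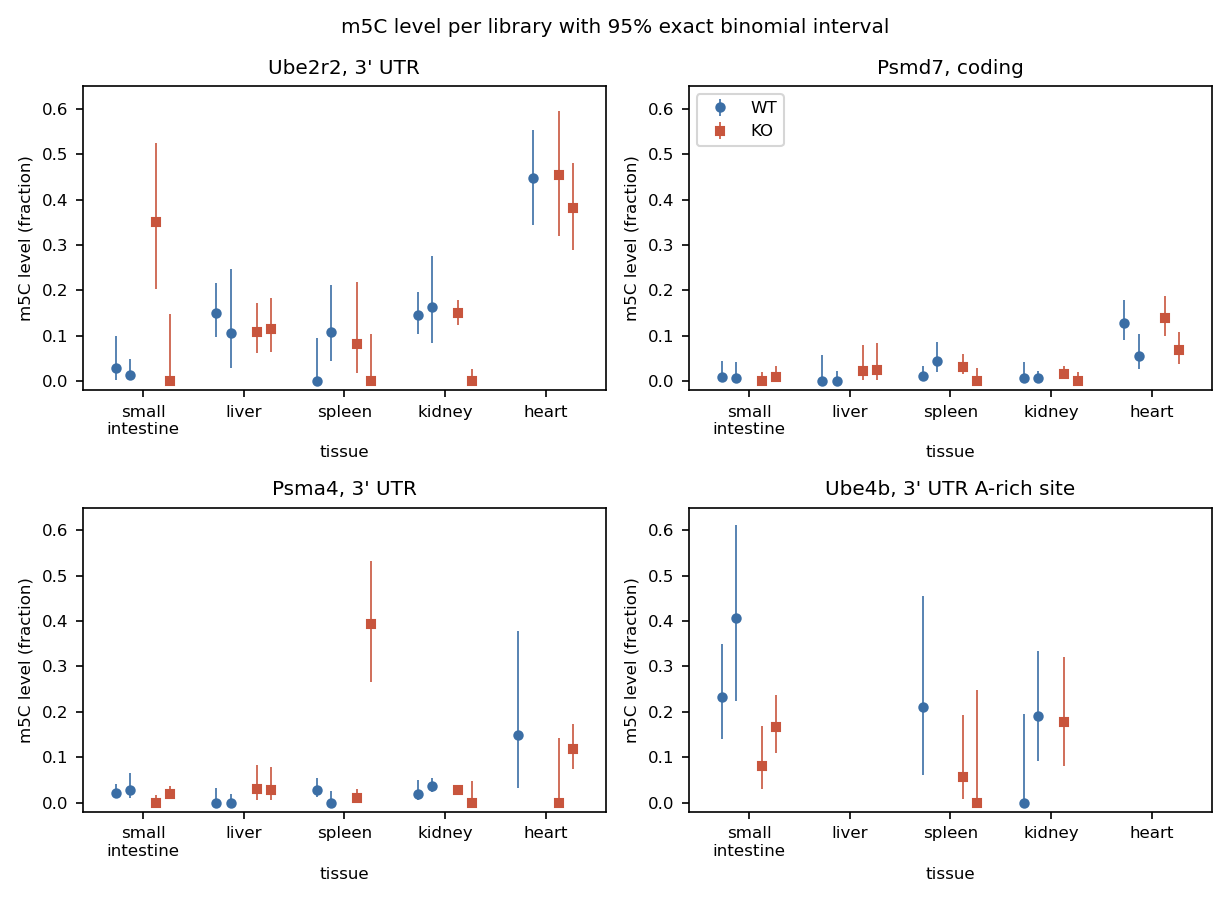
Level of m5C (fraction) in each library by tissue for 4 sites, in Ube2r2, Psmd7, Psma4 and Ube4b. Circles are WT and squares KO libraries, and lines are exact 95% binomial intervals (Clopper-Pearson); the 3 heart libraries of Ube2r2 sit between 0.381 and 0.455, and the 4 of Psmd7 between 0.0559 and 0.138.

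Psmd7 encodes a lid subunit of the regulatory particle, where it pairs with the deubiquitinase subunit Psmd14. Its site lay in the coding sequence of the last exon, 7 of 7 (chromosome 8, position 107581203), with the sequence CCAGC, and was passed in 2 libraries, both of heart. The heart levels were 0.129 (31 of 240) and 0.0559 (9 of 161) in WT and 0.138 (36 of 260) and 0.0679 (15 of 221) in KO. In the other 16 libraries the level lay between 0 and 0.0447, at 63 to 418 reads, so that heart did not overlap with the rest. The highest of the others was spleen WT replicate 2, with 8 of 179 reads. Psmd7 was the only pathway site that could be tested between the WT tissues, because it alone met the criteria in a WT tissue and had 20 reads in all WT libraries. Heart had a WT mean of 0.0925 ± 0.0518 (SD, n = 2), against 0.0280 ± 0.0235 in spleen, 0.00789 ± 0.000439 in small intestine, 0.00701 ± 0.000725 in kidney and 0 of 224 reads in liver, which allows up to 0.0134.

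Between WT tissues Psmd7 missed the threshold in the main test, with an adjusted p of 0.0828 (edgeR F test, unadjusted p 0.0438), where 90 of 208 sites passed (43.3%). In limma on logit levels the adjusted p was 0.0393, where 81 of the sites passed, and in edgeR with a coverage minimum of 10 it was 0.0929. Leaving out 1 library leaves a single library in a tissue. The edgeR value then fell without a liver or spleen library and rose without one of small intestine, kidney or heart, most for heart. Without a liver library more of all sites were called as well. Genotype did not separate the heart libraries, whose KO mean was 0.103 ± 0.0499 (SD, n = 2), with a log2 odds ratio of 0.17 and an adjusted p of 0.992 (edgeR). The sign of this ratio turned when heart WT replicate 2 (-0.43) or heart KO replicate 1 (-0.41) was left out.

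Psma4 encodes an alpha subunit of the proteasome barrel. Its site lay in the 3′ UTR, 113 bases after the stop codon in exon 9 (chromosome 9, position 54957899), with the sequence CGGGG, and had the broadest low signal of the proteasome sites, with 2 or more unconverted reads in 13 of 19 libraries. In kidney the levels were 0.0194 (4 of 206), 0.0355 (22 of 619) and 0.0288 (36 of 1248) in both WT libraries and KO replicate 1 and 0 of 74 in KO replicate 2. In small intestine they were 0.0214 and 0.0287 in WT and 0 and 0.0183 in KO, and in liver 0 and 0 in WT and 0.0294 and 0.0275 in KO. Genotypes did not overlap in those last 2 tissues, with KO below WT in small intestine and above it in liver. In spleen 3 libraries held 0 to 0.0279 and KO replicate 2 held 0.393 (22 of 56 reads), the library with the highest pooled level outside the tests. In heart the levels were 0.150 (3 of 20), 0 (0 of 24) and 0.117 (21 of 180) in WT replicate 1, KO replicate 1 and KO replicate 2. The spleen pair was tested and gave a log2 odds ratio of 2.94 with an adjusted p of 0.838 (edgeR). This ratio was -0.43 without KO replicate 2 and 5.48 without KO replicate 1.

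Psmb3, a beta subunit of the barrel without proteolytic activity of its own, was the pathway site with the lowest p for genotype, and that p rested on 1 library. The site in coding exon 4 (chromosome 11, position 97711129) was at 0.328 in spleen KO replicate 2, with 41 unconverted reads and an interval of 0.247 to 0.418. Spleen WT held 1 of 1192 and 0 of 794, and spleen KO replicate 1 held 2 of 1312. In the 16 libraries of the other tissues a single read was unconverted. The log2 odds ratio in spleen was 5.93 (unadjusted p 0.0127, adjusted p 0.336, edgeR), and across tissues it was 3.75 (unadjusted p 0.0475, adjusted p 0.637). Without spleen KO replicate 1 these ratios were 9.66 and 7.41, and without spleen KO replicate 2 they fell to 1.41 and 1.09. The part of that library's high pooled level in these values was not tested.

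The Ube4b gene encodes a chain-elongating ligase of the U-box type. Its 2 recurrent sites lay 9 bases apart in the A-rich part of the 3′ UTR (exon 27, chromosome 4, positions 149328716 and 149328725) and had values in 10 and 11 libraries, none of them of liver. At the first, small intestine held 0.232 (16 of 69) and 0.407 (11 of 27) in WT and 0.0811 (6 of 74) and 0.167 (24 of 144) in KO. The WT libraries were above the KO libraries without overlap, yet the log2 odds ratio of -1.64 had an adjusted p of 0.527 in edgeR and of 0.0111 in Fisher's exact test on summed reads, which holds no spread between libraries, in a range of 0.0111 to 1 over 11 alternatives. At the second, the levels were 0.0492 and 0.132 in WT and 0.050 and 0.0488 in KO (log2 odds ratio -0.79, adjusted p 0.775, edgeR). In kidney the first site held 0 of 17, 9 of 47 and 8 of 45 reads in both WT libraries and KO replicate 1. Pancreas acinar markers (2 of 6 genes had sites) took 1.57% and 0% of the reads in small intestine WT and 0.976% and 0% in KO, in replicate order, and their part in these levels was not tested. Usp2, a deubiquitinase linked to the circadian clock, had a recurrent site in the 3′ UTR. Its heart levels were 0.0588 and 0.143 in WT and 0.0693 and 0.111 in KO, at 18 to 274 reads, and small intestine KO held 0.112 and 0.0882. The heart genotypes overlapped, and no test was made because 1 heart library had fewer than 20 reads and WT small intestine had no value. The Ube4b and Usp2 sites are among the 28 with a stretch that occurred more than once, and the mapping of their reads was not examined. For Usp2 the stretch occurred 3460 times in the assembled chromosomes.

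Ube2z, an E2 enzyme charged by the alternative activating enzyme Uba6, carried a site in the last exon (exon 7, 3′ UTR, chromosome 11, position 96049266) that was passed in 4 libraries of 4 different groups. The passing libraries were small intestine KO replicate 1 with 12 of 57 reads (0.211), spleen KO replicate 1 with 4 of 36 (0.111), kidney WT replicate 1 with 3 of 27 (0.111) and heart WT replicate 1 with 10 of 35 (0.286). In each of these groups the other library held 0 to 0.0299. In small intestine the log2 odds ratio was 2.06 with an adjusted p of 0.504 (edgeR). Fisher's exact test on summed reads, which holds no spread between libraries, gave an adjusted p of 0.00297. Without KO replicate 2 the log2 odds ratio in edgeR was 3.31. The WT levels there were 0.0449 and 0.0155 and the KO levels 0.211 and 0.0299, so the genotypes overlapped. Smooth muscle markers (all 4 genes had sites) took 1.42% of the reads in small intestine KO replicate 1 and 0.0806% to 0.468% in the other 3 libraries of that tissue, and their part in these levels was not tested.

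Ube2f and Ube2m are the pair of E2 enzymes that carry NEDD8, a relative of ubiquitin that activates the cullins. The Ube2f site in the 3′ UTR (exon 10, chromosome 1, position 91285416) held 8 of 72 (0.111) and 2 of 159 (0.0126) unconverted reads in heart KO and 0 of 67 and 0 of 37 in heart WT. It was the only pathway site that met the criteria in one genotype and had 0 unconverted reads in the other. In heart alone, 5.43% of all sites that met them in KO with enough WT reads were at 0 in WT. Ube2f was 1 of 2 such pathway sites, too few to be set against that share, and heart was singled out because Ube2f lay there. In the other tissues 10 (small intestine), 15 (liver), 20 (spleen) and 31 (kidney) sites of all genes were at 0 in WT, with 0 pathway sites among them. In the opposite direction and over all tissues, 0 of 5 pathway pairs that met the criteria in WT had 0 in KO, where 10.4% of all such pairs did. The log2 odds ratio in heart was 3.94 with an adjusted p of 0.556 (edgeR), and the WT reads allow a level of up to 0.0288. Over the other 16 libraries the level was at most 0.0299. Ube2m had a site in the 5′ UTR (exon 1, chromosome 7, position 13037739) at 2 of 88 and 15 of 35 reads in kidney KO (0.0227 and 0.429), where WT replicate 1 held 0 of 22 and WT replicate 2 had no value. In heart the order was the other way, with levels of 0 and 0.090 in WT and 0 in both KO libraries.

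Among the remaining deubiquitinases, Usp3, which acts on histone H2A, had the highest levels and the thinnest coverage. The site in the 5′ UTR (exon 1, chromosome 9, position 66592957) held 13 of 21 and 12 of 12 reads in spleen WT and 18 of 28 and 1 of 26 in spleen KO. Kidney WT replicate 2 held 8 of 11, kidney KO replicate 1 held 14 of 18 and heart WT replicate 2 held 7 of 14. Levels were thus 0.50 or more in 6 of the 8 libraries with a value, and spleen KO replicate 2 at 0.0385 and small intestine KO replicate 2 at 0.0714 were the exceptions; only 3 libraries had 20 reads. At Usp24 a cytosine of coding exon 43 (chromosome 4, position 106406422) held 20 of 76 reads in heart WT replicate 1 and 17 of 60 in heart KO replicate 1, against 0 of 30 and 1 of 10 in the second libraries. Outside heart its highest level was 0.0779, in kidney KO replicate 1. Usp13, which meets the criteria in heart KO, had 13 of 83 and 4 of 144 reads there and 0 in heart WT replicate 2, with no value in WT replicate 1. Usp7, the deubiquitinase of Mdm2, was passed only in small intestine KO replicate 1 at a 5′ UTR site (chromosome 16, position 8738360), but held 2 or more unconverted reads in 7 of 13 libraries, at levels of 0.0364 to 0.250. The highest of these was 3 of 12 reads. Spleen KO replicate 2 held 0 of 582, and the liver WT and kidney WT libraries held 0 as well. The Usp7 site and the Psmd3 and Psma7 sites below were chosen after their values were seen.

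**Figure D3:**
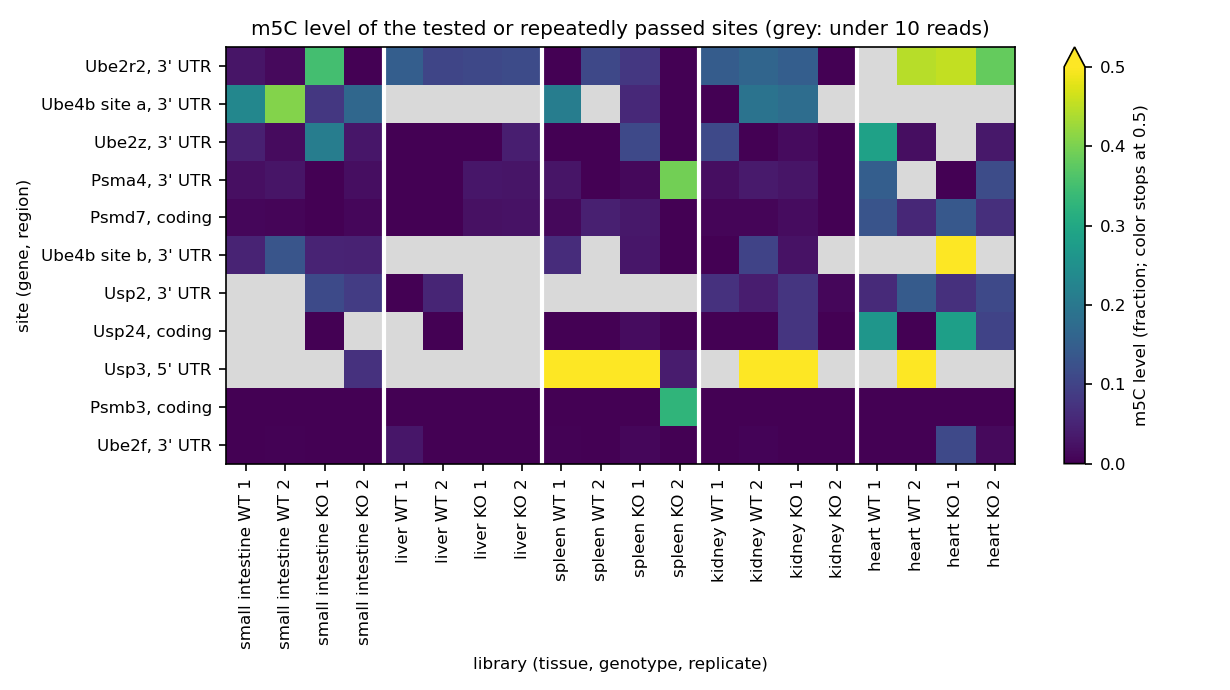
Level of m5C (fraction, colour scale ending at 0.5) of the 11 pathway sites that entered a test or were passed in 2 or more libraries, in each of the 20 libraries; grey marks libraries with no value. Ube2r2 has 2 or more unconverted reads in 15 of the 19 libraries with a value, whereas Psmb3 stands out only in spleen KO replicate 2, and Usp3 rises above the scale in spleen and kidney.

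The 4 sites with CTCCA were all in coding sequence and each was passed in 1 library. Psme4, the activator PA200, had 7 of 20 reads in liver WT replicate 1 (exon 42, chromosome 11, position 30861352) and 0 in the other 19 libraries. Psmd1, a scaffold subunit of the regulatory particle, had 6 of 58 reads in heart WT replicate 2 (exon 24, chromosome 1, position 86136965), 1 of 370 in heart KO replicate 2 and 0 in the other 18 libraries. Ube3b, an E3 ligase of the HECT type, had 10 of 30 reads in heart KO replicate 1 (exon 27, chromosome 5, position 114418597) and 0 in the other 14 libraries with a value. Usp47, a deubiquitinase linked to DNA repair in human cells, had 15 of 83 reads in heart WT replicate 1 (exon 13, chromosome 7, position 112083147) and 0 of 72 in the sister library. It also had 2 of 101 in spleen WT replicate 1 and 2 of 142 in kidney WT replicate 2, and 0 in all KO libraries, whose 171 heart reads allow a level of up to 0.0175. Unconverted reads were thus confined to WT libraries at Psme4 and Usp47 but not at Psmd1 and Ube3b, and none of the 4 met the criteria in any group. Psmd3, another subunit of the regulatory particle, showed a heart pattern without CTCCA: the 5′ UTR site (CGAGG, chromosome 11, position 98682683) was at 0.135 and 0.0526 in heart WT, with 15 and 1 unconverted reads, and 0 of 211 in heart KO, which allows up to 0.0142. It was not tested because WT replicate 2 had fewer than 20 reads.

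For 3 families no site was tested or passed more than once, and their best covered sites show how low most levels were. Psmc1, an ATPase of the regulatory particle, had 12386 reads at a site in coding exon 10 (chromosome 12, position 100121063), of which 21 were unconverted, 19 of them among 135 reads in spleen KO replicate 2. Psme4 had 13 unconverted reads of 3217 at a site in coding exon 36 (position 30848086), all in liver WT replicate 2. Ube3c, another HECT ligase, had 11 of 2757 in its 3′ UTR (exon 23, chromosome 5, position 29675193), all in heart WT replicate 1. At each of these sites nearly all or all unconverted reads thus came from a single library. By family, the level pooled over 20 libraries and all sites outside the tests ran from 0.251% in Psmc and 0.278% in Psmb to 0.933% in Ube3 and 1.18% in Usp. By library each family ran from 0% to a highest value of 2.65% (Usp) to 8.04% (Psma), so the families overlapped. In Psma7, another alpha subunit, the 3 neighbouring sites each had 4 of 35 reads unconverted in heart WT replicate 2.

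Taking the genotype comparisons over all tissues, 9 of the 14 pairs had 20 reads in all 4 libraries and were tested, at 8 sites in 7 genes. None was called by edgeR (0 of 9), 1 had an unadjusted p under 0.05 (Psmb3 in spleen), and limma on logit levels called 0 with 0 at that unadjusted level, where it called 0.343% of all 1165 pairs. Fisher's exact test on summed reads called 4 of the 9 and 54.2% of all pairs. The log2 odds ratio was above 0 in 5 pairs and below 0 in 4. Over all genes edgeR called 3.15% of 127 sites in small intestine, 2.60% of 154 in liver, 1.32% of 152 in spleen and 2.29% of 523 in heart, besides 0% in kidney, so that with 9 pairs a count of 0 is near the background. Across tissues 3 pathway sites had 20 reads in all 20 libraries and met the criteria somewhere, namely Psmb3, Ube2f and Psmd7. Their log2 odds ratios were 3.75, 0.32 and 0.29, and 0 were called by edgeR or limma (1 unadjusted in edgeR, 0 in limma), where each tool called 2.31% of 216 sites. A genotype effect that differed between tissues was called at 0% of the same 216 sites, and the adjusted p of all 3 pathway sites was 1. Without the filter on level, 513 pairs of a pathway site and a tissue were tested and 0 were called by edgeR, against 6 of 41495 (0.0145%) over all genes.

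**Figure D4:**
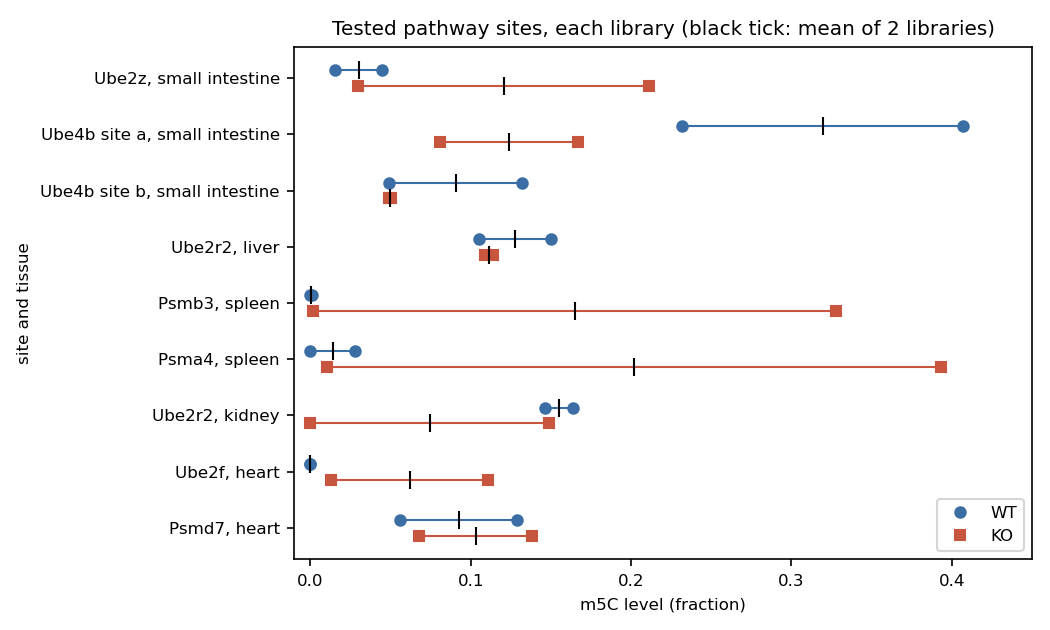
Level of m5C (fraction) of the 9 tested pairs of a pathway site and a tissue, with circles for WT and squares for KO libraries, a line joining the 2 libraries of a genotype and a black tick at their mean. The KO squares of Psmb3 and Psma4 in spleen and of Ube2r2 in kidney lie far apart, and the WT and KO libraries of Psmd7 in heart overlap.

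Other genes of the pathway gave the same kind of result. Of 94 genes for ubiquitin itself, E1 enzymes, proteasome assembly, shuttling, cullins, further ligases and further deubiquitinases, 80 had 286 listed sites, and 10 of these sites had been passed in 2 or more libraries. CNGGG was found at 10 and CTCCA at 1. Within tissues 7 pairs in 5 genes were tested for genotype, and edgeR called 0 in either direction, with 0 at an unadjusted p under 0.05. Nfe2l1, the transcription factor that raises proteasome genes when proteasome activity falls, had a site at 0.153 ± 0.0258 (SD, n = 2) in heart WT and 0.105 ± 0.0290 in heart KO (log2 odds ratio -0.63, adjusted p 0.908, edgeR).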

How the data were processed

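mRNA of 5 tissues was captured, treated with bisulfite and sequenced as stranded libraries by the authors, who called sites in each library with a published RNA m5C pipeline. The aligner is not given in the sources used here, and the submitters' processing notes name mm10 as the build. Per the file headers, the deposited table holds counts of reads (coverage) and of unconverted reads per site and library, the level as a fraction, equal to unconverted reads over coverage, and whether the authors passed the site there. Another 60 columns (p-values, nonconversion rates, signal) were not used. Passed values never fell below 20 reads, 3 unconverted reads or a level of 0.1, and no coverage below 10 was listed. A site without a value may thus have had too few reads, but other reasons were not examined.

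Pathway sites were chosen by symbol, and the members and gene lists were chosen with earlier results of these data known. Sites named are those tested, passed in 2 or more libraries, or the best covered of a family without such a site; the CTCCA sites and sites that met the criteria without a test were added because they were few, and those of Usp7, Psmd3 and Psma7 after their values were seen. Sequences, exons and regions came from the mm10 (GRCm38) reference and GENCODE M21, and the 21 bases around each site were searched on both strands of the assembled chromosomes. The values of 1 gene and 1 sequence are not reported here.

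A site entered a test within a tissue if it met the criteria in WT or KO with 20 reads in each of the 4 libraries. The main test was the quasi-likelihood test of edgeR 4.0.16 on both kinds of counts, with library intercepts and one genotype term for methylation, adjusted over all sites tested at 0.05. Limma 3.58.1 on logit levels (0.5 added to both counts) and Fisher's exact test were alternatives, with other minimums, a replicate block and leaving out each library. The edgeR step was tested on simulated data of 2000 sites per tissue and recovered 93.0% to 98.5% of 200 changed sites. The simulated sites were the best covered ones, the drops in KO were large, and the spread between libraries was set beforehand. The recovery therefore does not give the power at sites with few reads, smaller changes or libraries that lie far apart. Scripts used R 4.3.3, the data.table package (version 1.17.8), Python 3.11.15, pandas 2.3.3, numpy 2.4.6, scipy 1.17.1 and matplotlib 3.10.9.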

Additional observations from a re-analysis of the deposited data

Results flagged for a closer look

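The Psma4 site in the 3′ UTR (chromosome 9, position 54957899) had WT and KO levels that did not overlap, in opposite directions, in liver and small intestine. Both KO libraries of liver were above both WT libraries, with a difference of KO minus WT mean level of 0.0285. Both KO libraries of small intestine were below both WT libraries, with a difference of -0.0159. The difference between the tissues was not tested, because that test asked for 20 reads in all 20 libraries and heart WT replicate 2 had no value. Within each of these tissues the site had 20 reads in all 4 libraries. It did not meet the criteria in either, so it entered no main test there. In the edgeR test without the filter on level, 0 of 513 pairs of a pathway site and a tissue were called, so neither difference passed. The unconverted reads behind both differences were 0 of 307 in liver WT, 6 of 211 in liver KO, 14 of 594 in small intestine WT and 7 of 616 in small intestine KO. The 95% intervals of WT and KO libraries overlapped in both tissues. With 2 libraries per genotype, levels can easily fall apart in this way, and how many of all sites do so was not counted.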

How the results depend on the processing

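With at most 9 tests of pathway sites and 2 libraries per group, single libraries set most of these values, and Fisher's exact test on summed reads holds no spread between libraries. Within tissues the main fit called 0 pathway sites lower and 0 higher. Fisher's test called 1 lower and 3 higher, and 54.2% of all pairs. Without kidney KO replicate 1 the log2 odds ratio of Ube2r2 was -7.57, and without small intestine KO replicate 2 that of Ube2z was 3.31. Without spleen KO replicate 1 that of Psmb3 in spleen was 9.66, and that of Psma4 rose as well. Calls over all genes also rose, in both directions, when any of these libraries was left out. Across tissues leaving out 1 library gave 0 to 1 pathway sites higher (Psmb3 without spleen KO replicate 1), and between WT tissues 0 to 1, with limma at 1 (Psmd7). Over all genes the 15 lower and 7 higher calls within tissues became 6 and 0 with no filter on level, 4 and 0 in limma and 261 and 371 in Fisher's test. With 3 unconverted reads asked for, 1 was higher, and with a level of 0.1, 2 were. Leaving out 1 library gave 11 to 49 lower and 4 to 93 higher. Across tissues a coverage of 10 gave 9 lower, and leaving out 1 library 0 to 3 higher. A genotype effect differing between tissues was called at 1 site with a coverage of 10. Between WT tissues the 90 calls became 39 to 134 when 1 library was left out. The causes were not tested.

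In m5C level at the tested sites, same-numbered libraries showed little common deviation. The correlations were -0.145 (heart), -0.0977 (kidney), -0.0882 (spleen), 0.0753 (liver) and -0.0746 (small intestine). The labels give only the replicate number, and these correlations cannot tell whether same-numbered libraries were handled together. With the replicate number as a block, 0 pathway sites were called in either direction within tissues or across them, and over all genes 12 were higher within tissues and 1 across them. A crossed pairing in heart, chosen after seeing the data, called 10 sites lower and 1 higher, against 11 and 1.

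Some signs turned when 1 library was left out. The log2 odds ratio of Ube2f across tissues then ran from -0.32 to 0.96 (-0.06, -0.13 and -0.32 without spleen KO replicate 1, heart WT replicate 1 and heart KO replicate 1), that of Psmd7 in heart from -0.43 to 0.88 (with -0.41 without heart KO replicate 1), that of Ube2r2 in liver from -0.50 to 0.07, that of Psma4 in spleen from -0.43 to 6.41, and that of the second Ube4b site from -1.52 to 0.00. Coverage limits the rest: a site with 20 reads and none unconverted could still have a level above the 0.05 that the criteria ask for.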
